A study of Rattus norvegicus with 4 samples.

Results

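This section describes 10 genes of collagen IV and of collagen modification in INS-1 832/3 cells, which come from a rat tumour of beta cells and release insulin. They are the collagen chains Col4a1, Col4a2 and Col18a1, the prolyl 4-hydroxylase subunits P4ha1 and P4ha2, the lysyl hydroxylases Plod1, Plod2 and Plod3, the lysyl oxidase Lox and the collagen chaperone Serpinh1. The genes were chosen by name, and all 10 were found among the 23360 gene symbols of the data. Messenger RNA was sequenced in 4 samples, 2 standard monolayer cultures (2D) and 2 cultures bioprinted in GelXA LAMININK 411 (3D), a gelatin methacrylate hydrogel blended with laminin-411. All 4 were grown in one medium and were collected on day 5 at passage 3. The line is a single clone kept under Geneticin and carries a human insulin gene, and the labels name no other cell type in either group. The replicates are stated to be biological and nothing more is said of them, so p-values measure the spread between these cultures.

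Collagen chains are made in the endoplasmic reticulum, where prolyl 4-hydroxylases make the triple helix stable at body temperature and lysyl hydroxylases prepare lysines for sugars and crosslinks. The chaperone encoded by Serpinh1, HSP47, binds the folded helix, and lysyl oxidases crosslink collagens outside the cell. Collagen IV, usually built of the products of Col4a1 and Col4a2, is the network of basement membranes. In islets of Langerhans that membrane is known to be laid down mainly by endothelial cells rather than by beta cells. The prolyl and lysyl hydroxylases need oxygen, iron, 2-oxoglutarate and ascorbate.

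Transcripts of P4ha1, P4ha2 and Plod3 were well above the filter in these cells, those of Plod1 were lower, and those of Plod2 and of the collagen IV chains were at or near 0. The values are TPM, transcript abundances that are corrected for length and sum to 1000000 in each sample, so that levels can be compared between genes. P4ha1, P4ha2, Plod1 and Plod3 held between 99.88% and 99.92% of the summed TPM of the 10 genes in every sample. The other 6, with both collagen IV chains among them, had mean values of at most 0.190 TPM. The name collagen IV thus goes against the data, and the values that follow are mainly those of the hydroxylases. P4ha1, Plod1 and Plod3 rose in 3D culture, and the values of P4ha2 overlapped between the cultures. The RNA is that of whole cultures, so a change in the share of cells that express a gene cannot be told apart from a change per cell.

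**Figure D1:**
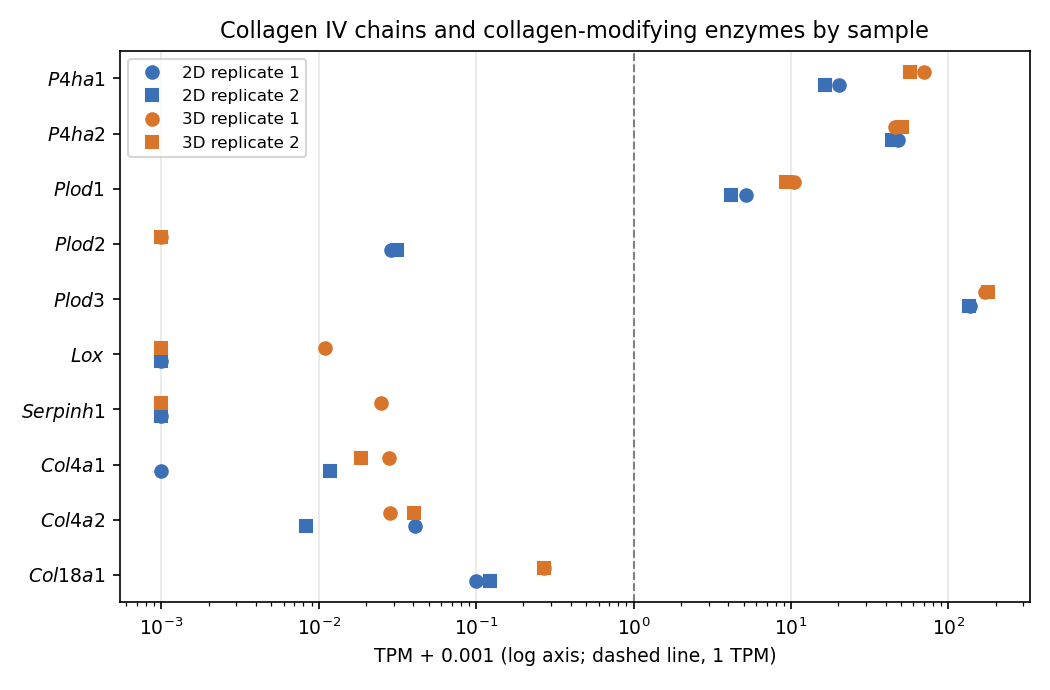
TPM of each of the 10 genes in each sample, with 0.001 added so that values of 0 can be drawn on a log axis. Blue marks the 2D and orange the 3D cultures, circles replicate 1 and squares replicate 2. Only P4ha1, P4ha2, Plod1 and Plod3 lie above the dashed line at 1 TPM, and the 3D values of P4ha1 (57.1 and 70.5) lie far to the right of its 2D values (16.4 and 20.1).

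Differences were tested with limma on log2(TPM + 1) after scaling between samples, over the 11960 genes with a mean of at least 1 TPM, with Benjamini-Hochberg adjustment over all of these. On this scale the change of a gene with low TPM comes out too small. Of all genes tested, 38.0% had an adjusted p below 0.05 (18.5% higher and 19.5% lower in 3D culture). Of the 10 genes, 4 passed the expression filter, each of them in both culture forms, and 3 of these 4 were called higher and 0 lower (0 of the 4 were also lower at an unadjusted p below 0.05). Their median log2 fold change was 0.61, and that of all genes tested was -0.0031. For any 1 gene, the smallest two-sided p of an exact permutation test is 0.33 in this design, and the calls depend on the variance that limma pools over genes. With 3D replicate 1 left out, 1 of the 10 genes was called, and 2 with 3D replicate 2 left out.

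Prolyl 4-hydroxylase is a tetramer of 2 alpha subunits, encoded by P4ha1, P4ha2 or P4ha3, and 2 beta subunits, encoded by P4hb. P4ha1 had 20.1 and 16.4 TPM in the 2D replicates and 70.5 and 57.1 TPM in the 3D replicates. Both 3D cultures thus lay far above both 2D cultures, a separation that 75.5% of all genes tested showed in one direction or the other. The mean rose 3.49-fold, from 18.3 ± 2.61 in 2D to 63.8 ± 9.46 TPM in 3D culture (SD, n = 2 each). On the log2 scale this was 1.71 with a standard error of 0.13 (limma, adjusted p = 0.0035). This change lay at percentile 99.7 of the log2 fold changes of all genes tested. With any single culture left out it ran from 1.55 to 1.87, with adjusted p from 0.0120 to 0.0348 in limma. The summed value of P4ha1 is that of a single listed transcript, ENSRNOT00000070897.1.

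P4ha2 had 47.8 and 43.7 TPM in the 2D replicates and 46.1 and 51.1 TPM in the 3D replicates, so that the groups overlapped. The difference was 0.042 on the log2 scale (SE 0.066, 95% interval -0.12 to 0.21, limma adjusted p = 0.634), and with 3D replicate 2 left out it was -0.017. The gene is listed with 2 transcripts. ENSRNOT00000042144.4 took 71.3% ± 2.17 of its TPM in 2D (SD, n = 2) and 70.3% ± 0.629 in 3D culture (SD, n = 2). In a fit over 15020 transcripts neither of them was called, with adjusted p of 0.969 for this transcript and 0.516 for ENSRNOT00000077185.1 in limma. P4ha3, the remaining alpha subunit, was listed at 0, 0.121, 0.0606 and 0.209 TPM in 2D replicates 1 and 2 and 3D replicates 1 and 2.

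The make-up of the alpha subunit pool was also compared. P4ha1 gave 29.6% and 27.2% of the TPM of the 3 alpha subunits in the 2D replicates, and 60.4% and 52.7% in the 3D replicates. The groups did not overlap, and the exact two-sided permutation p was 0.333, the smallest that 4 samples allow. The ratio of P4ha1 to P4ha2 was 0.398 ± 0.0324 in 2D (SD, n = 2) and 1.32 ± 0.290 in 3D culture (SD, n = 2). The order of the 2 genes was thus P4ha2 above P4ha1 in both 2D cultures and P4ha1 above P4ha2 in both 3D cultures. The whole pool went from 64.1 ± 5.37 to 112.5 ± 5.84 TPM.

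Plod1, Plod2 and Plod3 encode the lysyl hydroxylases LH1, LH2 and LH3. LH1 acts mainly on lysines of the helix, LH2 on those of the telopeptides from which crosslinks start, and LH3 also adds sugars to hydroxylysine and is known to be needed for collagen IV in basement membranes. Plod3 was the most abundant of the 10 genes, at percentile 93.5 of the mean TPM of all genes tested. It had 137 and 135 TPM in the 2D replicates and 170.0 and 179.8 TPM in the 3D replicates, with no overlap. The mean rose 1.29-fold, by 0.32 on the log2 scale (SE 0.055, limma adjusted p = 0.0112). The call was lost without 3D replicate 1 (log2 fold change 0.35, limma adjusted p = 0.0847) and without 3D replicate 2 (0.29, limma adjusted p = 0.0891).

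Plod1 was expressed at a far lower level, with 5.20 and 4.19 TPM in the 2D replicates and 10.5 and 9.35 TPM in the 3D replicates. Again both 3D cultures lay above both 2D cultures. The mean rose 2.12-fold, from 4.69 ± 0.720 to 9.94 ± 0.829 TPM (SD, n = 2 each), or by 0.91 on the log2 scale (SE 0.11, limma adjusted p = 0.0055). This was at percentile 97.5 of all genes tested. Without 3D replicate 1 the log2 fold change was 0.82 and its adjusted p 0.0624 in limma. Plod2 was listed at 0.0279 and 0.0305 TPM in the 2D replicates and at 0 in both 3D replicates, below the filter, and only 1 of its 3 listed transcripts had any value above 0. The pool of lysyl hydroxylase transcripts was thus almost all Plod3, at 96.6% ± 0.458 in 2D (SD, n = 2) and 94.6% ± 0.628 in 3D culture (SD, n = 2), while the share of Plod1 was 3.34% ± 0.460 and 5.39% ± 0.628.

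The levels of the 4 expressed genes can be put in order. In 2D culture Plod3 was highest, followed by P4ha2, P4ha1 and Plod1, and no neighbours in this order overlapped. In 3D culture the order was Plod3, P4ha1, P4ha2 and Plod1, and here too the values of neighbours did not overlap, although P4ha1 in 3D replicate 2 (57.1 TPM) and P4ha2 in the same culture (51.1 TPM) were near each other. Among the genes whose profile over the 4 samples was most like that of P4ha1 were Bhlhe40, Sdk2, AABR07049753.1 and Pfkfb3. Their Euclidean distances from it were 0.212 to 0.281, between centred log2(TPM + 1) values among 7616 other genes with a mean of at least 10 TPM. With 2 samples in each of 2 groups this likeness is largely that of the fold change, which ran from 1.61 to 1.86 on the log2 scale in these 4 genes.

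Since 3 of these 4 genes rose together, the sequences before their starts are shown. RefSeq entries (build GRCr8, which was used for sequence alone) were found for 9 of the 10 genes, and the 250 bases before the start of each of the 4 expressed genes follow, 5′ to 3′ on the strand of the gene. The P4ha1 sequence is chr20:27844796-27845045 (plus strand), that of P4ha2 chr10:38743644-38743893 (plus), that of Plod1 chr5:163650738-163650987 (minus) and that of Plod3 chr12:25323632-25323881 (minus). Capitals mark ACGTG and GCGTG on either strand, the core letters known from binding sites of hypoxia-inducible factors (HIF), which are also parts of binding sites of other factors.
P4ha1: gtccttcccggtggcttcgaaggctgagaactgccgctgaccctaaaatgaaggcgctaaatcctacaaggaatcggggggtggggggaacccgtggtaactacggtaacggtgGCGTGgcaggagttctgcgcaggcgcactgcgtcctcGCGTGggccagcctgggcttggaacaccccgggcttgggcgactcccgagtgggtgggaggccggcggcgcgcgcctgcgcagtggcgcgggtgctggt
P4ha2: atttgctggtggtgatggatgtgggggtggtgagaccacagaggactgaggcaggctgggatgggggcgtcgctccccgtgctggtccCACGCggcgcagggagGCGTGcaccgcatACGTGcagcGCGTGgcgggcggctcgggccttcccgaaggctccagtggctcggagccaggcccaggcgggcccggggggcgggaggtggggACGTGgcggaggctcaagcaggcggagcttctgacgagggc
Plod1: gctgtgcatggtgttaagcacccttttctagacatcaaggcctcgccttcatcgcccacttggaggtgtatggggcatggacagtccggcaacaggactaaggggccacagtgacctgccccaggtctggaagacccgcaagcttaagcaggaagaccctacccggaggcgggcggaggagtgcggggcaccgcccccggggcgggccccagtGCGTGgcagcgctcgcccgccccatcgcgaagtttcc
Plod3: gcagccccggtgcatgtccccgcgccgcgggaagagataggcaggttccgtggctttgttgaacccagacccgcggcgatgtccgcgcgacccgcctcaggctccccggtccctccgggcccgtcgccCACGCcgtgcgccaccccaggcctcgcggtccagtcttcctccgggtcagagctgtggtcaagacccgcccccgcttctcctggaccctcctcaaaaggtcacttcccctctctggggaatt

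In these 250 bases P4ha1 held 2 matches, at 136 and 99 bases before the start, and both were GCGTG. Plod1 and Plod3 held 1 match each, at 37 and 122 bases before the start. P4ha2, which was not called, held 5, among them ACGTG at 133 and 41 bases before the start. At least 1 match was found in 8 of the 9 sequences and in 36.7% of the 33469 promoters of the same length. The sequences of these genes are rich in G and C, at 60.4% to 75.2% against a median of 51.2% over all promoters, and the share among promoters of like base composition was not computed. Whether these matches have a part in the changes was not tested.

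The collagen IV chains were at the lower edge of what the data list. Col4a1 was listed at 0 and 0.0108 TPM in the 2D replicates and at 0.0270 and 0.0174 TPM in the 3D replicates, with both 3D values above both 2D values. Col4a2 was listed at 0.0400 and 0.00728 TPM in 2D and at 0.0274 and 0.0392 TPM in 3D culture, with overlap between the groups. Without the expression filter, in a fit over 16749 genes, the adjusted p was 0.637 for Col4a1 and 0.830 for Col4a2 in limma. The other 4 chains of this collagen were also below the filter. Col4a4 had the highest mean, 0.311 TPM, Col4a5 had 0.105 to 0.121 TPM in the 4 samples, Col4a3 was above 0 in 1 sample, and Col4a6 was listed at 0 in all. TPM themselves carry no depth, and no limit of detection was computed for these values.

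Col4a1 and Col4a2 stand head to head on opposite strands, with 76 bases between their starts at chr16:84885521-84885596 in GRCr8. This stretch is shown on the plus strand, the strand of Col4a1, because the pair is known to be transcribed from one shared promoter and both genes were near 0 here. Capitals mark the only match of GGGCGG, the letters of a GC box, on either strand (30.5% of all promoters held one in 250 bases). The stretch is shorter than that and has 79.0% G and C, and the share among stretches of like length and composition was not computed.
Col4a1 and Col4a2: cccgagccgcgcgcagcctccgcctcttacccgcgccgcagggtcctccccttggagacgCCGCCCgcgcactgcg

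Col18a1 encodes the alpha chain of collagen XVIII, a basement membrane collagen from whose end endostatin is cut. It was listed at 0.0987 and 0.122 TPM in the 2D replicates and at 0.270 and 0.271 TPM in the 3D replicates. Both 3D cultures lay above both 2D cultures, at levels below the filter. Without the filter its log2 fold change was 0.18 (limma adjusted p = 0.0419 over 16749 genes). Lox, the lysyl oxidase, was listed at 0 in 3 samples and at 0.010 TPM in 3D replicate 1. Serpinh1 was likewise listed at 0 in 3 samples and at 0.0237 TPM in 3D replicate 1. As a check on values of 0, a list of 20 genes that nearly all cells use, such as Actb, Tbp and Canx, was read. Gapdh was not found under its symbol, and the 19 genes found were above 0 in all 4 samples. Tbp had the lowest mean of the 19, 11.7 TPM. The check therefore cannot tell whether the values of 0 for Lox and Serpinh1 are true absence.

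**Figure D2:**
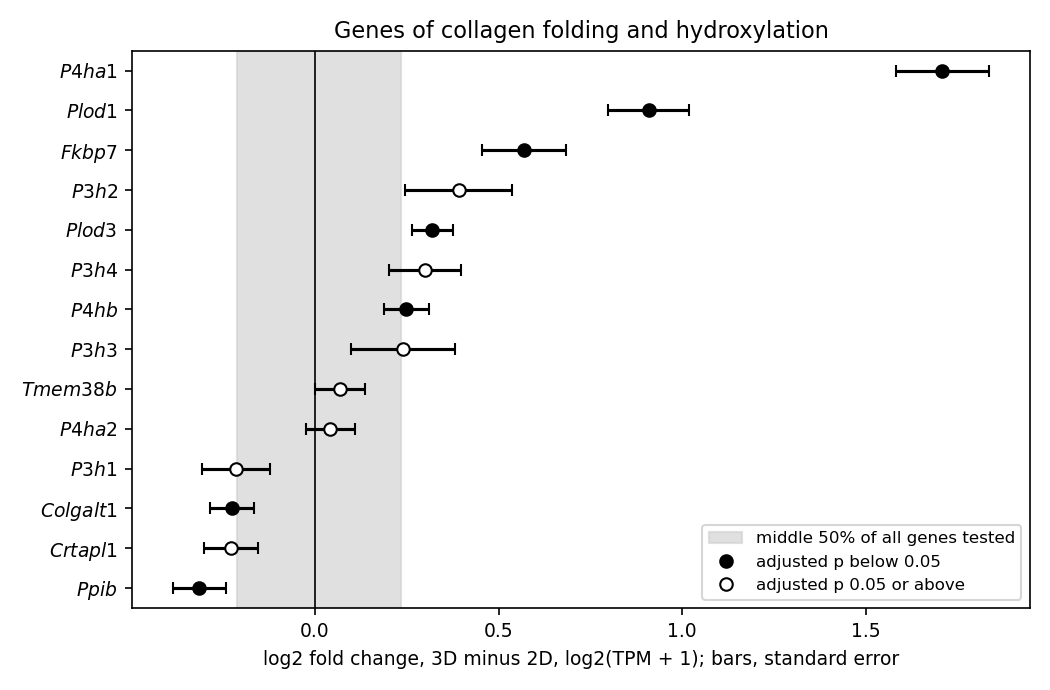
Log2 fold change, 3D minus 2D, of the 14 genes of collagen folding and hydroxylation that passed the filter, with its standard error. Filled points have an adjusted p below 0.05 in limma and the grey band holds the middle 50% of all genes tested. P4ha1 (1.71) and Plod1 (0.91) lie furthest to the right and Ppib (-0.31) furthest to the left.

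The wider set of genes that fold and hydroxylate collagen has 21 members, which include the 6 hydroxylase and chaperone genes above, and 14 were tested. Of these, 5 rose and 2 fell, and without the genes already described 2 of 10 rose and 2 of 10 fell. The counts among those 10 were near the shares of all genes tested (18.5% higher and 19.5% lower). The median log2 fold change of those 10 was 0.15. P4hb, the beta subunit of prolyl 4-hydroxylase and a protein disulfide isomerase, was the most abundant of the set and rose from 684 ± 9.73 to 838 ± 38.7 TPM (SD, n = 2 each) and by 0.25 on the log2 scale (limma adjusted p = 0.0274). It was not called without the filter (limma adjusted p = 0.0655), without 2D replicate 1 (0.0643) or without 2D replicate 2 (0.0518), nor with either 3D replicate left out (0.127 and 0.168). P4hb exceeded the summed alpha subunits by far in every sample. Fkbp7, a prolyl isomerase of the endoplasmic reticulum, rose from 1.67 ± 0.122 to 3.04 ± 0.172 TPM. Ppib, the isomerase cyclophilin B, fell from 252 ± 8.08 to 209 ± 12.3 TPM (log2 fold change -0.31, limma adjusted p = 0.0229, and 0.0601 without 2D replicate 2). Colgalt1, which adds galactose to hydroxylysine, fell from 37.7 ± 0.534 to 33.1 ± 1.48 TPM. The prolyl 3-hydroxylases P3h1, P3h2 and P3h3 were tested and had adjusted p from 0.0836 to 0.222 in limma. Fkbp10, Fkbp14 and Colgalt2 lay below the filter. With 3D replicate 1 or 3D replicate 2 left out, the set had 1 and 2 calls in place of 7, where the number of calls over all genes fell from 4541 to 136 and 1037.

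Other collagens than collagen IV were expressed. Of 35 further collagen chains in the data, 7 passed the filter, of which 5 rose and 1 fell (18.5% and 19.5% of all genes tested). Because 3 of those that rose passed only through the 3D cultures, the filter in part sets this count, and of the 4 with a mean of at least 1 TPM in both culture forms 2 rose and 1 fell. Col27a1, a fibrillar collagen of cartilage and other tissues, was the highest, with 15.1 and 13.9 TPM in the 2D replicates and 26.8 and 26.7 TPM in the 3D replicates (log2 fold change 0.80, limma adjusted p = 0.0036). Col9a1, a chain of a collagen that coats fibrils, was the one that fell, from 19.8 and 17.3 TPM to 12.2 and 12.7 TPM (log2 fold change -0.58, limma adjusted p = 0.0058). Col9a1 was thus the higher of these 2 chains in both 2D cultures and Col27a1 in both 3D cultures.

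Col16a1, which also associates with other matrix fibrils, rose from 1.39 ± 0.0995 to 3.11 ± 0.0504 TPM (SD, n = 2 each). The fibrillar chain Col24a1 rose from 0.162 ± 0.0385 to 2.65 ± 0.108 TPM and Col11a2 from 0.521 ± 0.134 to 2.51 ± 0.0119 TPM. Col6a6 rose from 0.765 ± 0.0612 to 1.95 ± 0.0104 TPM. These last 3 passed the filter only through the 3D cultures. Col6a2 had 6.57 ± 0.0314 and 8.13 ± 0.239 TPM, an adjusted p of 0.0656 in limma. The remaining 28 chains had means of at most 0.511 TPM, and 5 of them were listed at 0 in all samples. With a filter of 5 TPM, 2 chains were called, and without 3D replicate 1 only Col24a1 was (limma adjusted p = 0.0368).

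**Figure D3:**
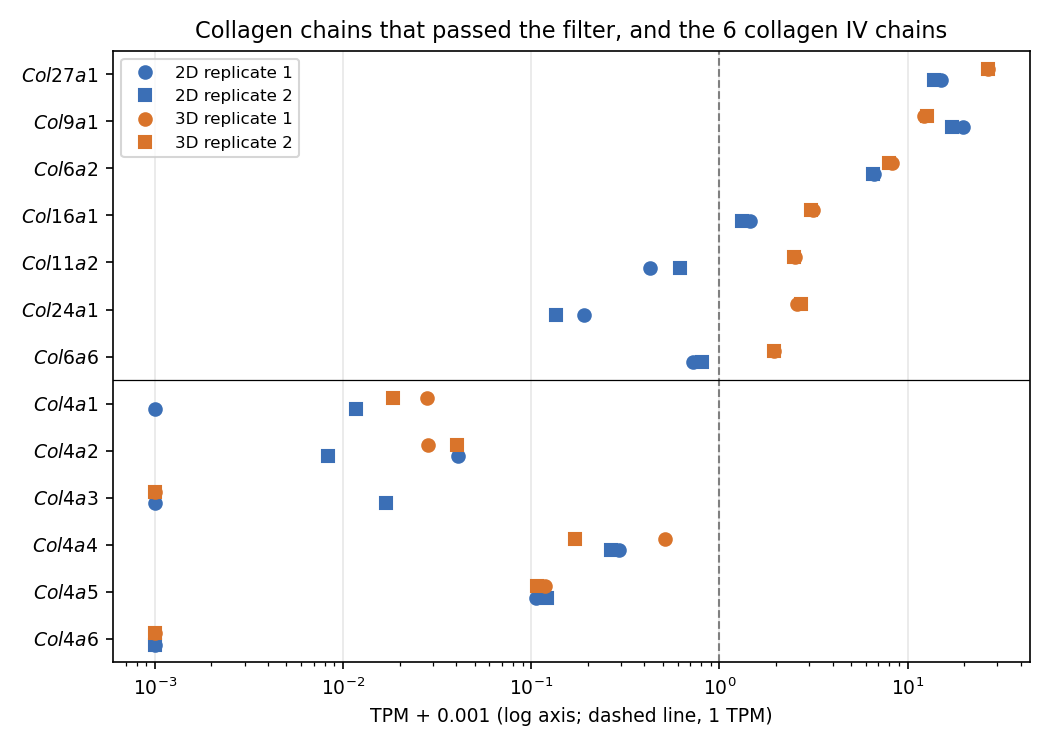
TPM of the 7 collagen chains that passed the filter (above the line) and of the 6 collagen IV chains (below it) in each sample, with 0.001 added for the log axis. Blue marks 2D and orange 3D cultures. Col9a1 is the only chain above the line with its 3D values to the left, and the collagen IV chains all lie below 1 TPM.

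Among 21 genes of collagen export and crosslinking found in the data, 13 were tested, and 1 rose and 1 fell, with a median log2 fold change of 0.04. The share called was 15.4%, against 38.0% of all genes tested. Sec23a, of the coat of vesicles that leave the endoplasmic reticulum, rose from 3.42 ± 0.702 to 5.21 ± 0.447 TPM (limma adjusted p = 0.0380). Tfg, which helps to organise the sites of exit, fell from 101 ± 5.65 to 91.6 ± 1.38 TPM (limma adjusted p = 0.0391). Neither call held without 2D replicate 2 (adjusted p of 0.112 and 0.0509 in limma), without 3D replicate 1 or without 3D replicate 2. Tfg also lost its call without scaling between samples (limma adjusted p = 0.112) and without 2D replicate 1 (0.0661), and Sec23a without the filter (0.0939). Sec13 and Sec24d, of the same coat, had 133 ± 3.85 and 96.0 ± 8.72 TPM in 2D and 128 ± 2.81 and 111 ± 1.84 TPM in 3D culture. Pxdn, the peroxidasin that joins collagen IV molecules by sulfilimine bonds, was named after its values had been seen and had 4.02 ± 0.651 TPM in 2D and 4.25 ± 0.0017 TPM in 3D culture (limma adjusted p = 0.796). The lysyl oxidase-like genes Loxl1 and Loxl4 were listed at 0 in all samples, and Loxl3 had at most 0.405 TPM.

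Of the partners of collagen IV in the basement membrane, 20 were found, 6 were tested and 5 rose, where 18.5% of all genes tested were higher. Of the 5 with a mean of at least 1 TPM in both culture forms, 4 rose. Agrn, the heparan sulfate proteoglycan agrin, rose from 3.91 ± 0.313 to 6.27 ± 0.143 TPM (SD, n = 2 each) and by 0.53 on the log2 scale (limma adjusted p = 0.00995). Smoc1, a secreted calcium-binding protein of basement membranes, rose from 18.4 ± 1.22 to 23.2 ± 0.381 TPM (limma adjusted p = 0.0197, and 0.0511 without 2D replicate 2). The other 3 that rose were the laminin chains Lamb3, Lama5 and Lamb1, of which Lamb1 passed the filter only through the 3D cultures and was not called without 2D replicate 2 (limma adjusted p = 0.0546). Nid1 and Nid2, the nidogens that link laminin to collagen IV, had means of at most 0.209 TPM, and Sparc, which binds collagen IV, was listed at 0 in all samples. None of the 5 calls held with either 3D replicate left out.

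Cells sense collagen through integrins and discoidin domain receptors. Of 11 genes of such receptors and their partners 4 were tested and 2 rose, where 18.5% of all genes tested were higher. Of these 2, 1 had a mean of at least 1 TPM in both culture forms. Mrc2, an endocytic receptor that takes up collagen for breakdown, rose from 0.541 and 0.610 TPM in the 2D replicates to 2.37 and 2.60 TPM in the 3D replicates (log2 fold change 1.12, limma adjusted p = 0.0050), and so passed the filter through the 3D cultures. Cd47, listed as a partner of integrins and a receptor of thrombospondin, rose from 32.0 ± 1.47 to 41.8 ± 3.49 TPM (limma adjusted p = 0.0312, and 0.0790 without the filter). Its log2 fold change was 0.33, and 0.25 without 2D replicate 1, where Cd47 was not called. With 3D replicate 1 left out neither was called, and with 3D replicate 2 left out only Mrc2 was. The shared beta subunit of collagen-binding integrins, Itgb1, had 156 ± 4.36 and 169 ± 1.07 TPM (limma adjusted p = 0.272), and the receptor Ddr1 had 32.1 ± 1.2 and 37.2 ± 1.17 TPM (0.0678). The alpha subunits that give collagen binding, Itga1, Itga2, Itga10 and Itga11, had means of at most 0.226 TPM.

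P4ha1, P4ha2, Plod1, Plod2 and Lox are known as targets of HIF, and Plod2 and Lox also respond to TGF-beta in other cells. Of 21 other known HIF targets tested, 8 rose and 1 fell, with a median log2 fold change of 0.23. The share called was 42.9%, near the 38.0% of all genes tested, with 38.1% higher against 18.5%. Pfkfb3 and Bhlhe40 rose most, by 1.84 and 1.86 on the log2 scale (adjusted p = 0.0014 each in limma), and Ndrg1 was the one that fell (-0.47, limma adjusted p = 0.0062). Of 12 other known TGF-beta targets tested, 6 rose and 0 fell (50% higher, against 18.5% of all genes tested), with a median of 0.34, among them Fn1 at 1.69 (0 of the 12 were also lower at an unadjusted p below 0.05). Their part in the rise of the hydroxylases was not tested. With 3D replicate 1 left out, the number of calls was 2 in place of 9 among HIF targets and 3 in place of 6 among TGF-beta targets. It was 3 among TGF-beta targets with 3D replicate 2 left out.

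**Figure D4:**
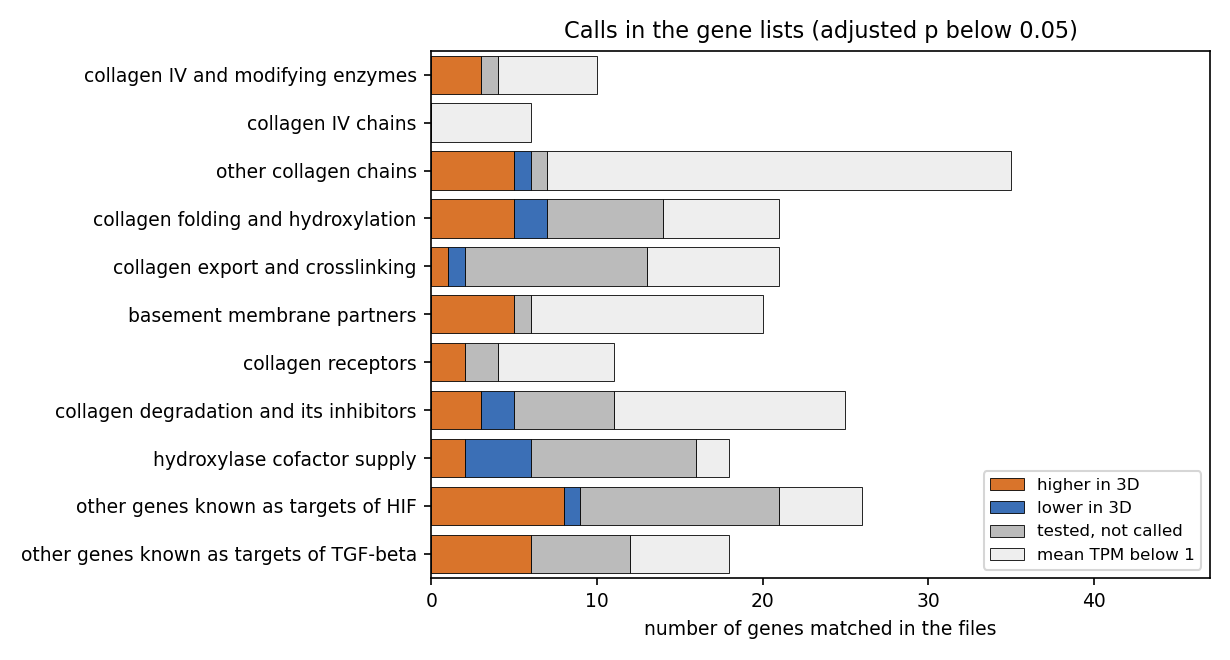
Number of genes in each list that were higher or lower in 3D culture at an adjusted p below 0.05 in limma, tested without a call, or below the filter of 1 TPM. The list of folding and hydroxylation includes the hydroxylases and Serpinh1, and that of basement membrane partners includes Col18a1. All 6 collagen IV chains fall in the palest part of their bar.

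Markers of beta cells were abundant in both culture forms. All 14 beta-cell markers were tested, with summed values of 148173 and 161052 TPM in 2D and 158556 and 171149 TPM in 3D culture, of which Ins1 alone was 76.9% to 80.5%. Of these markers 2 rose, Slc2a2 and Pcsk2, and 1 fell, Ins2, from 13289 ± 72.2 to 9141 ± 261 TPM (SD, n = 2 each, limma adjusted p = 0.0095). The share of beta-cell markers called was 21.4%, against 38.0% of all genes tested. Of 13 markers of fibroblasts and stellate cells found, 3 passed the filter and 0 were called in limma (1, Col6a2, had an unadjusted p below 0.05), with Dcn, Lum and Pdgfrb at 0 in all samples and Col1a1 and Col3a1 at means of at most 0.0161 TPM. Their sum, most of it Thy1, was 218 and 221 TPM in 2D and 189 and 219 TPM in 3D culture. Thy1 passed the filter with means of 210 TPM in 2D and 193 TPM in 3D culture. Col6a2 (means of 6.57 and 8.13 TPM) and Pdgfra (1.89 and 2.28 TPM) were the others that passed. Of 9 endothelial markers found, 3 passed the filter and 0 were called in limma (0 also at an unadjusted p below 0.05). Cdh5, Tie1 and Emcn were at 0 in all samples. The 3 that passed were Esam (means of 16.6 TPM in 2D and 17.6 TPM in 3D), Egfl7 (9.73 and 10.4 TPM) and Kdr (0.983 and 1.37 TPM). The sums, most of them Esam and Egfl7, were 26.9 and 28.6 TPM in 2D and 29.1 and 31.0 TPM in 3D culture. All 8 leukocyte markers were below the filter, with Ptprc at 0, and summed to 0.983 and 0.635 TPM in 2D and 0.875 and 1.5 TPM in 3D culture.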

How the data were processed

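The authors sequenced stranded polyA libraries with single-end reads of 75 bases and checked the reads with FastQC 0.11.8. Salmon 1.2 gave transcript abundances from the rat reference, to which human insulin had been added. The deposited values are TPM, which sum to 1000000 in each sample and do not carry the depth of a library, so that precision is that of 2 cultures per group. They are written with decimal commas and were therefore entered as another unit in an automated check, where the deposited values are not read as numbers. The submitters' processing notes name rn4, while the transcript identifiers are from Ensembl, and no coordinates of the files were used. The counts needed for the DESeq2 test named in the methods are not carried by TPM, so that test was not repeated.

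TPM were summed per gene symbol and genes with a mean of at least 1 TPM were kept. Scaling factors (0.960 to 1.02) came from a trimmed mean of M values that gave all genes equal weight and dropped 30% of M and 5% of A from either side. Groups were compared in R 4.3.3 on log2(TPM + 1), using limma 3.58.1 with a variance trend on expression level. Printed TPM are as deposited, and fold changes in limma are after scaling. A comparison of all values found no duplicated sample. The steps were tested on simulated TPM.

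The genes and lists were chosen with earlier results of these data known. All 10 genes are named, and of each list those with an adjusted p below 0.05, at most the 6 with the smallest p, and the 3 with the highest mean TPM, though not each of them is described, and some results are not reported here. Older symbols were matched through the GRCr8 annotation. The likeness of profiles was also planned for Col4a1, which was below the filter, so none is given. Lists on breakdown and on cofactors are in the last section. Alternatives were the scaling, the filter, the pseudocount, the empirical Bayes options, a replicate block, the threshold, a fit over transcripts and each culture left out in turn.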

Additional observations from a re-analysis of the deposited data

How the results depend on the processing

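The direction of P4ha1, Plod1 and Plod3 was kept in all 13 other settings with a fit. P4ha1 had an adjusted p below 0.05 in 13 of them, Plod1 in 12 and Plod3 in 11. P4ha2 was called in 0 of the 13 (adjusted p from 0.422 to 0.952 in limma), and its log2 fold change ran from -0.017 (without 3D replicate 2) to 0.10 as single cultures were left out. Same-numbered cultures did not deviate together (correlation of deviations of same-numbered cultures -0.0060 across genes). With a replicate block 4814 genes were called, and the members called higher were again 3, while P4hb (adjusted p = 0.0503) and Tfg (0.0603) were no longer called in limma and the list of export and crosslinking had 1 call in place of 2.

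At an adjusted p below 0.01, 1418 genes were called in place of 4541, 2 in the list of folding and hydroxylation in place of 7, 0 in export and crosslinking, 3 of 5 in basement membrane partners, 1 of 2 in receptors, 1 of 5 in degradation, 1 of 6 in cofactor supply and 3 of 6 in TGF-beta targets. With a mean of at least 5 TPM, 2 of 6 other collagen chains were called, where fewer genes are tested. Export and crosslinking had 1 call with that filter, with no filter and without scaling. The log2 fold change of Ftl1 was -0.00046 and was 0.043 without scaling, 0.0047 with median of ratios scaling and 0.025 with the filter of 5 TPM, and ran from -0.069 to 0.070 as single cultures were left out.

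Leaving out single cultures, calls over all genes ran from 136 to 4515 and those among the 10 genes from 1 to 3 higher. They ran from 1 to 6 in other collagen chains, 1 to 6 in folding and hydroxylation, 0 to 2 in export and crosslinking, 0 to 5 in basement membrane partners, 0 to 2 in receptors, 0 to 4 in degradation, 0 to 6 in cofactor supply, 2 to 9 in HIF targets and 3 to 5 in TGF-beta targets. The lone culture of a group is then assumed to vary like the other group. The cause of these losses was not tested. The scalings moved the median log2 fold change of all genes by at most 0.04, and TPM do not carry the depth behind the values near 0.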

Other observations

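Genes that break down collagen moved in both directions. Of 25 found, 11 were tested, 3 rose and 2 fell (27.3% and 18.2%, against 18.5% and 19.5% of all genes tested). Of the 10 with a mean of at least 1 TPM in both culture forms, 2 rose and 2 fell. Ctsl, the lysosomal protease cathepsin L, rose from 97.7 ± 0.216 to 131 ± 3.46 TPM (SD, n = 2 each), with an adjusted p of 0.00905 in limma. Timp1, an inhibitor of metalloproteinases, rose from 3.35 ± 0.770 to 7.39 ± 0.273 TPM (log2 fold change 0.92, limma adjusted p = 0.0102). Of the membrane-type metalloproteinases, Mmp17 rose from 0.655 ± 0.0493 to 1.54 ± 0.403 TPM, passing the filter through the 3D cultures, whereas Mmp16 and Mmp24 fell, by 0.42 and 0.21 on the log2 scale. These last 3 calls were lost without 2D replicate 1 or without 2D replicate 2, with adjusted p from 0.0579 to 0.105 in limma. The gelatinases Mmp2 and Mmp9, known for cleaving collagen IV and gelatin, had at most 0.121 TPM in any sample, and Mmp14 was listed at 0 in 3 samples.

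Of 16 tested genes that supply proline or the cofactors of the hydroxylases, 2 rose and 4 fell, with a median log2 fold change of -0.06. The share called, 37.5%, was close to the 38.0% of all genes tested. Enzymes of the last step of proline synthesis moved in both directions. Pycr1 rose from 7.09 ± 1.41 to 10.3 ± 0.302 TPM (limma adjusted p = 0.0291, and 0.0559 without 2D replicate 2), whereas Pycr3 fell from 45.9 ± 1.26 to 38.4 ± 1.63 TPM (adjusted p = 0.0244, and 0.0597 without 2D replicate 2). Of the glutathione transferases that can reduce dehydroascorbate, Gsto1 fell from 422 ± 1.00 to 362 ± 7.26 TPM and Gsto2 rose from 1.87 ± 0.389 to 5.56 ± 2.27 TPM. The call of Gsto2 was lost without either 2D replicate (adjusted p of 0.0519 and 0.0883 in limma). None of the 5 calls among breakdown genes held without either 3D replicate, and of the 6 calls among supply genes 0 held without 3D replicate 1 and 2 without 3D replicate 2.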
